A study of Mus musculus with 2 samples.

Results

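The 45 genes described here encode the machinery that copies DNA, and they were taken by symbol from a fixed list, 45 of the 32285 genes listed in both deposited count tables. They cover the replicative helicase (*Mcm2* to *Mcm7*), origin licensing, helicase activation, the sliding clamp and its loader, polymerases and primase, single-strand binding, Okazaki fragment joining, nucleotide supply, uracil removal and chromatin assembly. The data are droplet-based 3′ single-cell RNA-seq counts of mouse bone marrow, with 1 Ctrl library and 1 library of Map4k4-cKO animals (cKO), each made from 2 parts of c-Kit+ cells and 3 parts of bone marrow cells of animals aged 13 to 14 weeks. All animals carried Mx1-Cre, an interferon-inducible Cre that acts in blood cells and in other interferon-responsive tissues, and deletion in the cKO mice was induced by repeated poly I:C injections. The methods do not say whether the controls were injected, so an effect of poly I:C itself cannot be told apart from that of the genotype. The cKO mice were Mx1-Cre Map4k4 f/f, and the methods spell the genotype of the littermate controls as Mx1-Cre Map4k4-/-. How many animals went into a library was not given in the sources used here. With 1 library in each group no difference could be tested, so values carry exact 95% intervals that cover counting error only.

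DNA replication begins when the origin recognition complex, Cdc6 and Cdt1 load the Mcm2-7 ring onto DNA before S phase. Cdc45 and the GINS complex then turn the ring into a moving helicase, and polymerases held by the Pcna clamp copy both strands from nucleotides made by ribonucleotide reductase and thymidylate synthase. Most of these genes are induced by E2F factors as cells enter S phase. In bone marrow, neutrophil progenitors and precursors divide, while mature neutrophils have left the cell cycle.

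The promoters show what the members share in sequence. RefSeq promoter windows on GRCm38.p6, running from 250 bases before to 50 bases after the first listed start, were matched for 37 of the 45 members; *Mcm4*, *Gmnn*, *Gins1*, *Gins2*, *Gins4*, *Rfc2*, *Prim2* and *Pole* were not matched. Letters resembling an E2F site, read on either strand, stood in 22 of the 37 windows (59.5%). The letters searched were TTCCCGC, present in 15 member windows, then TTGGCGC in 9 of them, also TTCGCGC in 5 and lastly TTGCCGC in 2, and a window could hold several. The share was 9.69% over all 27025 genes with a window and 17.8% over the 9037 of them with at least 20 UMIs in ProNeu-like cells, the neutrophil progenitor gate. Among 44 windows of other replication genes it was 45.5%, and among 21 windows of mitotic genes it was 14.3%. The CCAAT letters stood in 22 of 37 member windows (59.5%), 17 of 21 mitotic windows (81.0%) and 37.9% of all windows. A match upstream of both the RefSeq and the GENCODE start, where these left 60 bases, was found for 8 of the 37 members. This stricter match was not counted over all genes or the other lists, so the shares above do not apply to it. A match of letters is a description and not a measured binding site. The 5 stretches printed here, each 60 bases long, come from those 8 and show such letters in genes of different roles. Each belongs to the member of its role with most UMIs among the 8. Capitals mark the E2F-like letters, and in *Mcm6* a TTGGCGC overlaps a TTCGCGC read on the other strand.
Mcm6: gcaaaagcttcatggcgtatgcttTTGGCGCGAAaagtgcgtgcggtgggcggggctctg
Pola1: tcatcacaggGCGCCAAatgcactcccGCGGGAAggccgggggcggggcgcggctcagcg
Rpa2: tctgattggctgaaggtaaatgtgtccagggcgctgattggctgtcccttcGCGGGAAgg
Rrm2: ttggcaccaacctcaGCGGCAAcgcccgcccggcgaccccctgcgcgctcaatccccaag
Chaf1a: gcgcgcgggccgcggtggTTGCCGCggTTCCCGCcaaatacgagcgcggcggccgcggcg
The *Mcm6* stretch lies at chr1:128359779-128359838 on the minus strand, that of *Pola1* at chrX:93632244-93632303 on the minus strand, and that of *Rpa2* at chr4:132768272-132768331 on the plus strand. The *Rrm2* stretch lies at chr12:24708004-24708063 and the *Chaf1a* stretch at chr17:56040342-56040401, both on the plus strand.

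The Ctrl library held 10220 barcodes with 71527701 unique molecular identifiers (UMIs, tags of single captured RNA molecules), against 6872 and 64393950 in the cKO library. Filters left 8795 Ctrl and 5347 cKO cells with 261529 and 156677 member UMIs. *Map4k4*, the targeted gene, was at 72.3 CPM (UMIs per 1e6) in the kept Ctrl cells and 64.0 CPM in the kept cKO cells. Centring, here and below, uses the median cKO over Ctrl ratio of genes with at least 20 UMIs in each library. For *Map4k4*, cKO over Ctrl was -0.18 on the log2 scale (-0.24 to -0.12), or 0.31 once centred on that median gene. The cKO cells described here are therefore cells of the library labelled cKO, and every direction rests on that label. The libraries shared 2633 barcode strings among kept cells, and 357 of these (13.6%) fell in the same gate in both, where 12.5% would follow from the gate sizes alone.

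Cells were placed along the neutrophil lineage by marker genes that include none of the members. HSC/MPP-like cells held stem and multipotent progenitor markers. ProNeu-like cells were rich in primary granule genes such as *Elane* and *Mpo*, and PreNeu-like cells held primary and secondary granule genes together. The imNeu-like cells held secondary granule genes such as *Ltf* and *Ngp*, and mNeu-like cells held late genes such as *Il1b* and *Csf3r*. A gate between HSC/MPP-like and ProNeu-like cells, set for granulocyte-monocyte progenitors, had 5 HSC/MPP markers and 2 of its own among its 10 leading genes, so it is called granule-moderate progenitors after its rule. Cells between the imNeu-like and mNeu-like gates are called imNeu-to-mNeu. In this order of stages the gates held 363, 335, 853, 336, 2111, 448 and 1331 Ctrl cells and 108, 93, 558, 586, 1409, 543 and 1067 cKO cells. Between 504 and 1024 cells lay within 20% of each of 6 main gate bounds, so neighbouring stages grade into each other.

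The summed members made up a nearly level share of UMIs from progenitors to PreNeu-like cells and a far smaller share in later stages. In HSC/MPP-like cells the share was 0.396% (0.389 to 0.403) in Ctrl and 0.340% (0.330 to 0.350) in cKO. It was highest in granule-moderate progenitors, at 0.510% (0.503 to 0.518) in Ctrl and 0.453% (0.442 to 0.464) in cKO. ProNeu-like cells held 0.448% (0.445 to 0.452) and 0.407% (0.403 to 0.410). PreNeu-like cells held 0.445% (0.439 to 0.452) and 0.387% (0.382 to 0.392). Up to this stage the shares of a library stayed within a narrow range, with cKO below Ctrl at each stage. In imNeu-like cells the share was 0.203% (0.201 to 0.205) in Ctrl and 0.144% (0.142 to 0.145) in cKO, 2.19-fold and 2.70-fold below the PreNeu-like share of the same library. In imNeu-to-mNeu cells it was 0.0635% (0.0600 to 0.0673) and 0.0275% (0.0261 to 0.0290). The mNeu-like cells held 0.0624% (0.0598 to 0.0650) and 0.0285% (0.0272 to 0.0298), 7.14-fold and 13.6-fold below PreNeu-like cells. Within a library, the intervals of the last 2 gates overlapped.

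**Figure D1:**
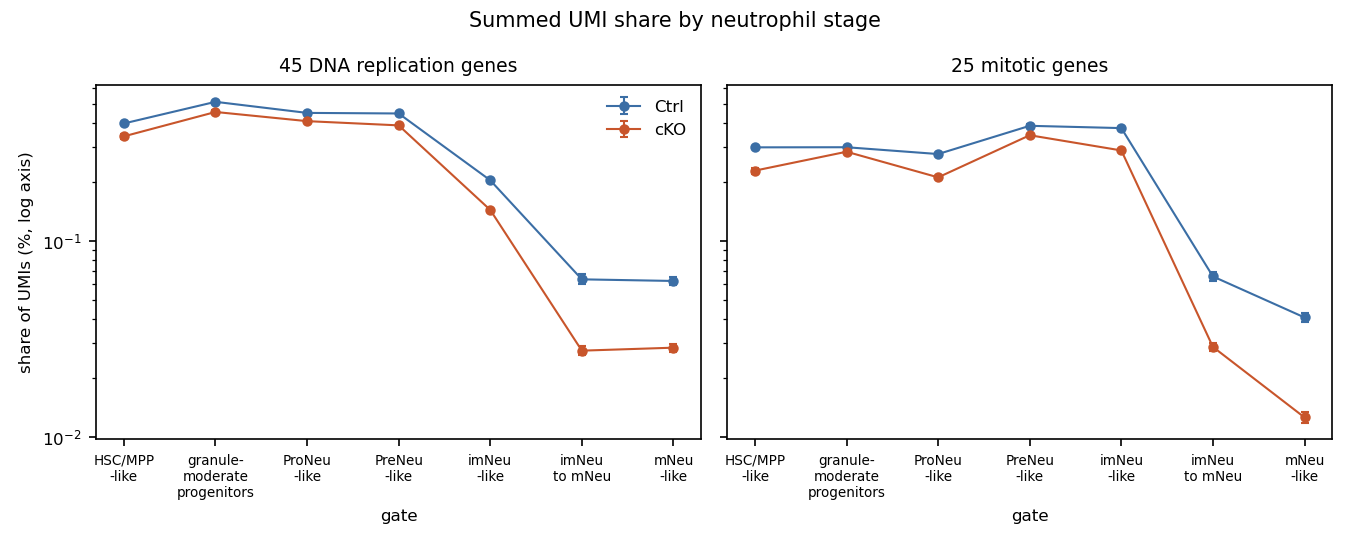
Summed share of UMIs (percent, log axis) of the 45 DNA replication genes (left) and of 25 mitotic genes (right) in 7 gates from progenitors to mature neutrophils, with 1 point per library and bars for the exact 95% counting interval. The member share is 2.19-fold lower in imNeu-like than in PreNeu-like Ctrl cells, while the mitotic share of these gates is 0.375% and 0.385%.

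Mitotic genes, such as *Mki67* and *Top2a*, took a different course. Their share was 0.277% in ProNeu-like and 0.385% in PreNeu-like Ctrl cells, and 0.210% and 0.345% in cKO. From PreNeu-like to imNeu-like cells their log2 change was -0.04 (-0.06 to -0.01) in Ctrl and -0.26 (-0.28 to -0.23) in cKO, where that of the members was -1.13 (-1.16 to -1.11) and -1.43 (-1.46 to -1.41). The imNeu-like gate is named from granule genes, and its mitotic share of 0.375% in Ctrl and 0.288% in cKO goes against reading it as cells that have stopped dividing. From imNeu-like to imNeu-to-mNeu cells the mitotic genes had log2 changes of -2.51 in Ctrl and -3.33 in cKO.

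The members did not share 1 course before this fall. In Ctrl, 30 of the 45 were highest in granule-moderate progenitors, 8 in PreNeu-like, 4 in ProNeu-like and 3 in HSC/MPP-like cells, and none in a later gate. In cKO the counts were 25, 5, 9 and 6, and 34 members had the same highest stage in both libraries. From ProNeu-like to PreNeu-like cells, 6 members were higher with intervals off 0 in both libraries, namely *Pcna*, *Lig1*, *Rrm1*, *Rrm2*, *Tyms* and *Tk1*. These encode the clamp, the ligase that seals Okazaki fragments, both subunits of ribonucleotide reductase, thymidylate synthase and thymidine kinase. Another 16 were lower in both, among them *Mcm3*, *Mcm6*, *Mcm7*, *Orc1*, *Cdt1*, 4 of the 5 Rfc loader genes, *Pola1*, *Pola2*, *Pold2*, *Dut* and *Ung*. From PreNeu-like to imNeu-like cells all 45 members were lower in both libraries with intervals off 0, with log2 changes from -2.16 to -0.49 in Ctrl and from -2.87 to -0.60 in cKO. Highest stages and changes between stages were not counted over all genes, so these counts have no background beside them.

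**Figure D2:**
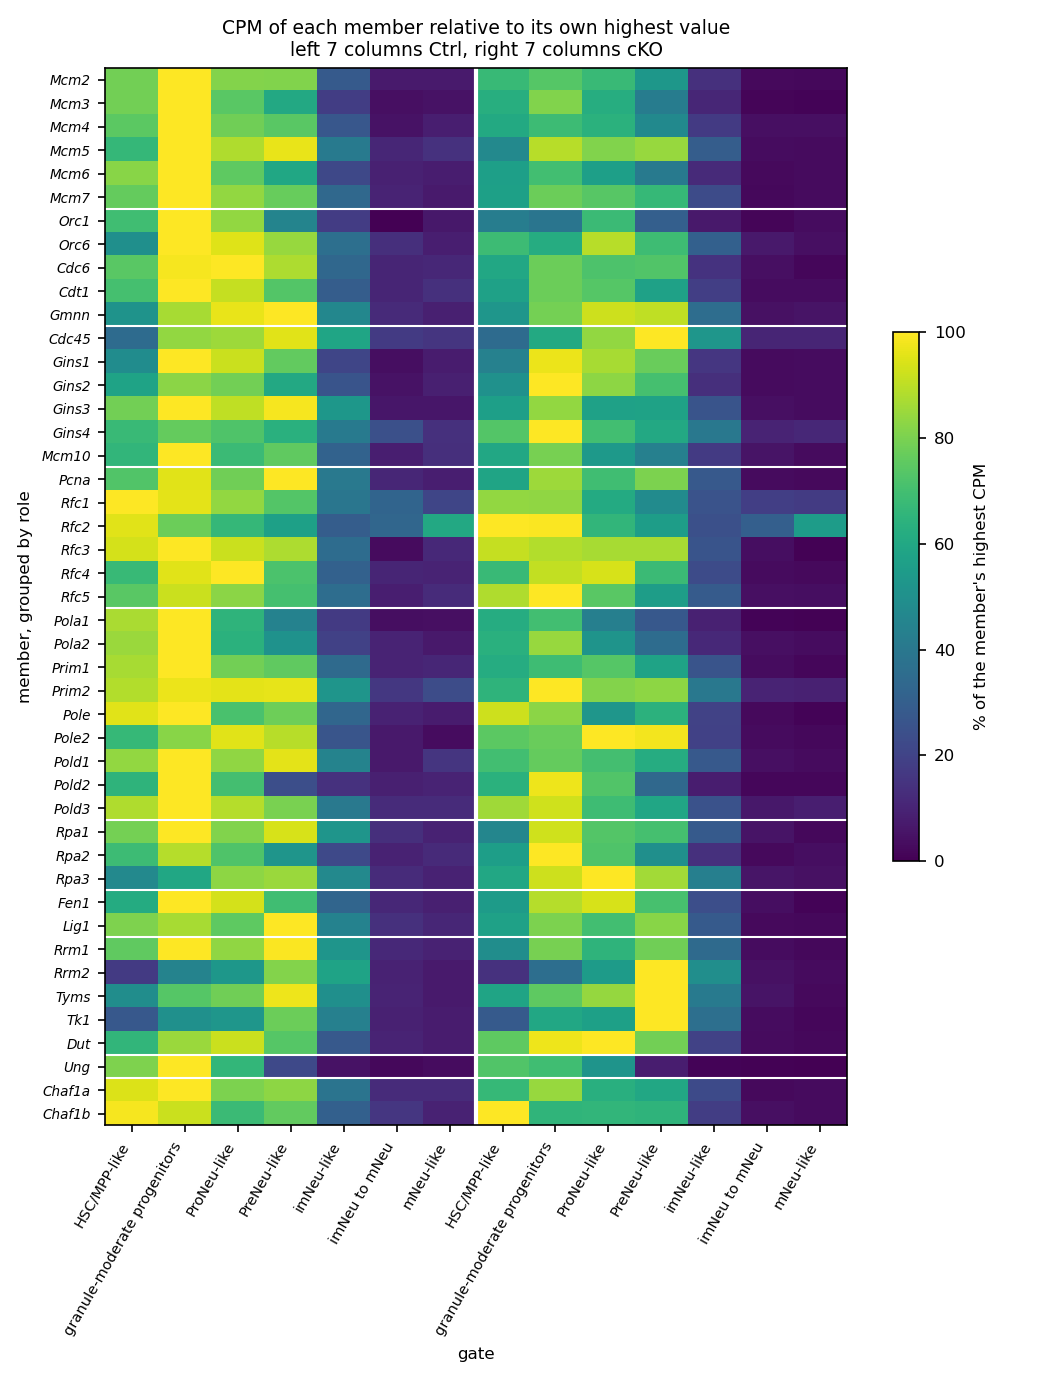
CPM of each of the 45 members in 7 gates, Ctrl in the left 7 columns and cKO in the right 7, as percent of that member's own highest value, with members grouped by role. *Rrm2* and *Tk1* are highest in PreNeu-like cells, *Ung* and *Pold2* are low there, and *Rfc2* is at 109 CPM in mNeu-like Ctrl cells and 99.9 CPM in mNeu-like cKO cells.

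*Rrm2*, the S-phase subunit of ribonucleotide reductase, showed the steepest increase. Along HSC/MPP-like, ProNeu-like, PreNeu-like, imNeu-like and mNeu-like Ctrl cells it was at 49.0, 154, 237, 169 and 21.1 CPM. In cKO the same gates held 41.4, 160, 291, 144 and 8.85 CPM. The log2 change from HSC/MPP-like to PreNeu-like cells was 2.28 (2.04 to 2.52) in Ctrl, and *Rrm2* kept the largest part of its PreNeu-like level in Ctrl imNeu-like cells. *Tk1*, which salvages thymidine, went from 47.0 to 132 CPM in Ctrl and from 48.4 to 170 CPM in cKO between HSC/MPP-like and PreNeu-like cells. *Cdc45*, the helicase activator with the most UMIs of its role, went from 20.2 to 55.3 CPM in Ctrl and from 20.3 to 57.8 CPM in cKO.

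*Ung*, which removes uracil from DNA, had the opposite course from HSC/MPP-like to PreNeu-like cells. In Ctrl it was at 42.4, 52.45, 34.7, 11.6 and 2.60 CPM in HSC/MPP-like, granule-moderate, ProNeu-like, PreNeu-like and imNeu-like cells. In cKO these gates were at 38.3, 36.46, 27.2, 4.30 and 0.590 CPM. The last of these rest on 43 and 12 UMIs. Its log2 change from PreNeu-like to imNeu-like cells, -2.16 in Ctrl and -2.87 in cKO, was the largest among the members. *Pold2*, a subunit of DNA polymerase delta, was at 39.5 CPM in ProNeu-like and 13.6 CPM in PreNeu-like Ctrl cells, and at 41.1 and 19.1 CPM in cKO. *Pola1*, the catalytic subunit of the polymerase that starts new strands, was at 90.5, 67.3, 45.8 and 17.5 CPM in HSC/MPP-like, ProNeu-like, PreNeu-like and imNeu-like Ctrl cells. *Pola1* was highest in granule-moderate progenitors, at 103.6 CPM in Ctrl, as were the summed members. From there to PreNeu-like cells it fell more than the summed members did.

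The clamp loader subunit *Rfc2* stood apart in mature cells. In Ctrl it was at 173, 120, 103, 53.2, 59.6 and 109 CPM in HSC/MPP-like, ProNeu-like, PreNeu-like, imNeu-like, imNeu-to-mNeu and mNeu-like cells. In cKO the values were 180, 119, 100, 44.1, 54.7 and 99.9 CPM. Its mNeu-like level was therefore 90.6% of its ProNeu-like level in Ctrl and 84.1% in cKO, where the median of the other 44 members was 11.3% and 3.94%. The next was *Rfc1*, the large loader subunit, with 24.9% and 28.2%, and 42 Ctrl and 43 cKO members kept less than 20%. The share of all genes that kept less than 20% was not computed. *Rfc2* alone made up 17.5% of the member UMIs of mNeu-like Ctrl cells and 35.0% in cKO, against 2.69% and 2.92% in ProNeu-like cells. *Rfc2* lies on chromosome 5 of GRCm38 from 134581366 to 134601805, and no other listed gene on its strand overlaps it in GENCODE vM21. The remaining loader genes did not share this course, with *Rfc3* at 6.66 CPM (24 UMIs) in mNeu-like Ctrl and 0.443 CPM (3 UMIs) in mNeu-like cKO cells.

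Members were compared between cKO and Ctrl at each stage, counting genes at least 1.5-fold apart among those with at least 20 UMIs over both libraries. All genes with that many UMIs were on balance lower in cKO, with a median log2 ratio from -0.10 for HSC/MPP-like cells down to -0.44 for mNeu-like cells. The interval of a single gene again covers counting error only. In HSC/MPP-like cells, 3 of 45 members were at least 1.5-fold lower in cKO, where 14.7% of all genes were, and 0 were higher, where 7.1% of all genes were. In granule-moderate progenitors 2 were lower and 1 was higher, against 16.2% and 4.56% of all genes. In ProNeu-like cells 1 was lower and 0 were higher, against 21.5% and 1.93%. In PreNeu-like cells 8 were lower and 0 were higher, against 30.3% and 2.52%. Up to PreNeu-like cells, the share of members past 1.5-fold in either direction was below that of all genes in each comparison. In these gates, in order of stage, 42, 43, 45 and 43 members had at least 100 UMIs over both libraries. The share of all genes, here and below, includes genes with as few as 20 UMIs, whose counting error is larger. Members were not compared with genes of like UMIs, so whether the lower share is a property of the members was not tested.

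**Figure D3:**
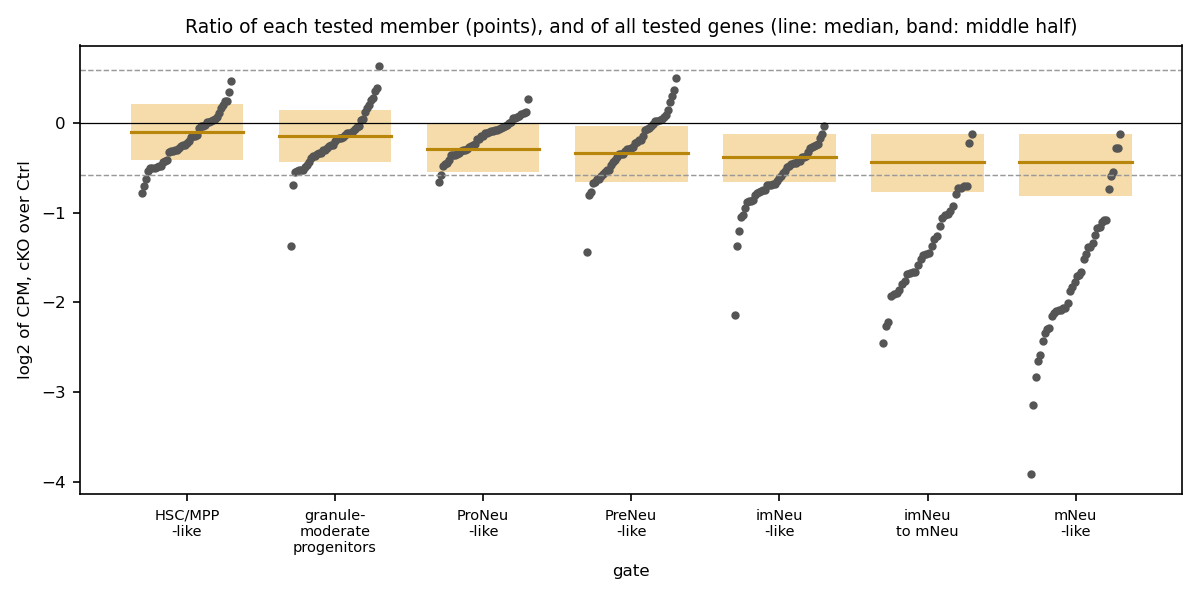
Log2 ratio of CPM, cKO over Ctrl, of each member with at least 20 UMIs (points, ordered within a gate) in 7 gates, with the median of all such genes (line), their interquartile range (band) and 1.5-fold in either direction (dashed lines). Member ratios spread on both sides of the all-gene median up to PreNeu-like cells, and 37 of 40 lie below it in mNeu-like cells.

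The summed members had a log2 ratio of -0.22 (-0.27 to -0.17) in HSC/MPP-like cells, -0.17 (-0.21 to -0.13) in granule-moderate progenitors, -0.14 (-0.16 to -0.12) in ProNeu-like and -0.20 (-0.23 to -0.17) in PreNeu-like cells. Centred on the median gene, the ProNeu-like value became 0.13 and the PreNeu-like value 0.12, so the members were lower in share but not lower than the typical gene of these gates. PreNeu-like cells differed in depth, with medians of 12378 UMIs in Ctrl and 1748 in cKO, and 379 of the 586 cKO cells had under 3000 UMIs. Those 379 cells held 10.96% of the cKO UMIs of the gate. Late neutrophil genes made up 0.501% of their UMIs, against 0.103% in the deeper cKO cells. In Ctrl these values were 0.320% in 91 cells under 3000 UMIs and 0.0893% above. Above 3000 UMIs, 245 Ctrl and 207 cKO cells had a log2 ratio of -0.17 (-0.20 to -0.14).

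Roles diverged in these dividing stages. The Mcm2-7 ring genes together had log2 ratios of -0.40 (-0.50 to -0.30) in HSC/MPP-like, -0.39 (-0.47 to -0.30) in granule-moderate, -0.26 (-0.29 to -0.22) in ProNeu-like and -0.42 (-0.48 to -0.35) in PreNeu-like cells. The 5 nucleotide supply genes had -0.06 (-0.18 to 0.07), -0.02 (-0.11 to 0.08), 0.01 (-0.03 to 0.05) and 0.09 (0.03 to 0.14) in the same gates. Their counting intervals did not overlap those of the ring genes at any of these 4 stages. Such intervals leave out variation between cells and between animals, so the difference between roles was not tested. Centred on the median gene, the ring genes were at -0.33, -0.30, 0.01 and -0.10, and the nucleotide supply genes at 0.01, 0.07, 0.28 and 0.40. In ProNeu-like cells the ring genes were thus close to the median gene, and the nucleotide supply genes above it. The ring gene *Mcm6* was at 252 CPM in Ctrl and 173 in cKO in HSC/MPP-like cells, and at 182 and 125 CPM in PreNeu-like cells. The ring genes were mixed in PreNeu-like cells, with log2 ratios of -0.62 for *Mcm2* and -0.65 for *Mcm4*, but -0.19 for *Mcm5* and -0.20 for *Mcm7*. The nucleotide supply role was also mixed. *Rrm1*, the other reductase subunit, had log2 ratios of -0.63, -0.33, -0.36 and -0.35 over the 4 stages, close to those of the summed ring genes. *Dut*, which removes dUTP, was at 324 CPM in Ctrl and 352 CPM in cKO in ProNeu-like cells, a log2 ratio of 0.12 (0.06 to 0.18). *Rpa3*, the smallest subunit of the single-strand binding complex, had the highest ratio in granule-moderate progenitors and ProNeu-like cells, at 0.64 (0.35 to 0.92) and 0.27 (0.17 to 0.37). The other members past the fold in the early gates were *Orc1* and *Rpa1* in HSC/MPP-like cells, *Orc1* and *Orc6* in granule-moderate progenitors, and *Gins3* in ProNeu-like cells, all lower in cKO. *Orc6*, a subunit of the origin recognition complex, changed side between neighbouring gates, from 0.47 (0.05 to 0.87) in HSC/MPP-like cells to -0.69 (-1.07 to -0.33) in granule-moderate progenitors.

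In PreNeu-like cells the 8 members at least 1.5-fold lower in cKO were *Mcm2*, *Mcm4*, *Gins3*, *Mcm10*, *Rfc1*, *Pola1*, *Pold1* and *Ung*. They encode parts of the helicase and its activators, the clamp loader and polymerases, and the enzyme that removes uracil. *Ung* was lowest, at 11.6 CPM in Ctrl and 4.30 CPM in cKO, a log2 ratio of -1.44 (-2.24 to -0.68). *Mcm10*, a helicase activator, was at 39.5 and 22.7 CPM, a log2 ratio of -0.80 (-1.16 to -0.45). *Tk1* and *Rrm2* had log2 ratios of 0.37 (0.21 to 0.53) and 0.29 (0.18 to 0.41), and *Pold2*, on 56 and 98 UMIs, of 0.50 (0.01 to 0.997). Centred on the median gene, 1 of 45 members, *Ung*, was at least 1.5-fold lower, where 11.5% of all genes were, and *Pold2*, *Rrm2* and *Tk1* were at least 1.5-fold higher, where 8.76% were. Both shares of members were below those of all genes.

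In imNeu-like cells 24 of 45 members (53.3%) were at least 1.5-fold lower in cKO, where 30.5% of all genes were, and 0 were higher, where 2.03% were. The summed ratio was -0.50 (-0.52 to -0.48) and the median member was at -0.62, beside -0.38 for all genes. Centred on the median gene, 6 members were lower, namely *Mcm2*, *Orc1*, *Cdc6*, *Gins2*, *Gins3* and *Ung*, and 0 were higher, where 11.9% and 7.01% of all genes were. The share of members lower after centring was thus near that of all genes. *Cdc6*, which loads the ring at origins, was at 15.7 CPM in Ctrl and 6.83 CPM in cKO, and *Mcm2* was at 47.3 and 22.9 CPM, with log2 ratios of -1.20 (-1.51 to -0.90) and -1.05 (-1.21 to -0.88). *Gins4*, a subunit of the helicase activator, was at 24.0 and 23.4 CPM, a log2 ratio of -0.04 (-0.23 to 0.16). Nucleotide supply genes had a summed ratio of -0.36 (-0.41 to -0.32), and the ring genes one of -0.69 (-0.74 to -0.63).

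The imNeu-like gate was wide, and cells of the 2 libraries lay at different places in it. It was divided by the share of late neutrophil genes, with ranges chosen after the values were seen. Below 0.05% of UMIs, the members made up 0.283% (0.277 to 0.289) in 312 Ctrl cells and 0.283% (0.271 to 0.295) in 44 cKO cells. From 0.05% to 0.1% they made up 0.244% (0.240 to 0.247) in 827 Ctrl cells and 0.254% (0.2498 to 0.258) in 350 cKO cells. These ranges held 54.0% of the imNeu-like Ctrl cells and 27.96% of the cKO cells. From 0.1% to 0.25%, the member share was 0.121% (0.118 to 0.124) in Ctrl and 0.107% (0.104 to 0.109) in cKO. Above 0.25%, it was 0.0790% (0.0748 to 0.0834) in 328 Ctrl cells and 0.0250% (0.0235 to 0.0266) in 388 cKO cells, a log2 ratio of -1.66 (-1.78 to -1.54). In this last range mitotic genes had a log2 ratio of -1.90 (-2.01 to -1.80), primary granule genes were at 0.0809% and 0.0353%, and median depth was 4407 and 10153 UMIs. With both libraries weighted to 1 common mix of the 4 ranges, the summed ratio was -0.08 in place of -0.50. RNA of other lineages also differed between the libraries in the whole imNeu-like gate. Erythroblast markers summed to 0.0281% in Ctrl and 0.00270% in cKO, with 8 of 8 lower, HSC/MPP markers to 0.00452% and 0.00110%, with 12 of 12 lower, and B lineage markers to 0.00279% and 0.000246%, with 9 of 9 lower. The part of such RNA, of depth and of the mix of cells in the imNeu-like difference was not tested.

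**Figure D4:**
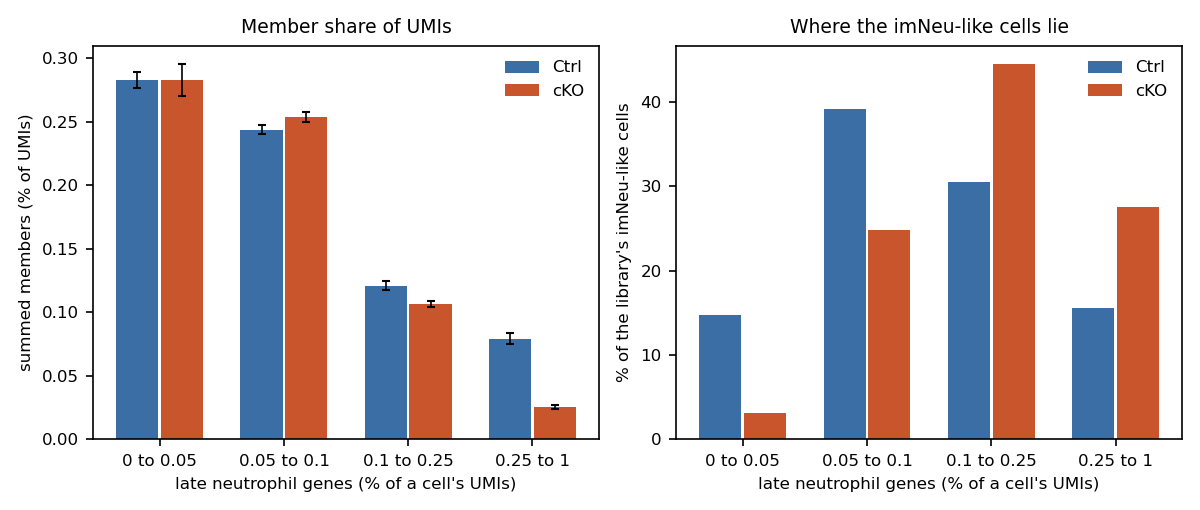
The imNeu-like cells in 4 ranges of late neutrophil genes (percent of a cell's UMIs): left, summed members as percent of UMIs with exact 95% counting intervals; right, percent of each library's imNeu-like cells in the range. In the lowest range both libraries stand at 0.283%, and ranges under 0.1% hold 54.0% of the Ctrl and 27.96% of the cKO cells.

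Late stages differed most between the libraries. Of 34 members with enough UMIs in imNeu-to-mNeu cells, 32 were at least 1.5-fold lower in cKO, where 38% of all genes were, and 0 were higher, where 3% were. Of 40 in mNeu-like cells, 36 were lower and 0 were higher, against 38.4% and 3.38% of all genes. Centred on the median gene, 25 and 34 members were lower in these gates, where 14.8% and 18.4% of all genes were. The members that were not past the fold were *Mcm4* and *Rfc2* in imNeu-to-mNeu cells and *Gins4*, *Rfc1*, *Rfc2* and *Pold3* in mNeu-like cells. A member could be counted here through its UMIs in either library, and 11 members in the first gate and 5 in the second did not reach 20 UMIs. The summed ratio was -1.21 (-1.32 to -1.09) in imNeu-to-mNeu and -1.13 (-1.22 to -1.04) in mNeu-like cells. Without *Rfc2* the latter was -1.48 (-1.58 to -1.37). The late difference was not particular to the members. Of the mitotic genes with at least 20 UMIs, 22 of 25 in imNeu-to-mNeu and 23 of 24 in mNeu-like cells were at least 1.5-fold lower in cKO. Their summed ratios were -1.19 (-1.30 to -1.08) and -1.69 (-1.82 to -1.57). *Pcna* was at 42.4 CPM (153 UMIs) in Ctrl and 13.4 CPM (91 UMIs) in cKO mNeu-like cells. *Mcm5* had the lowest ratio among members with at least 100 UMIs, -2.29 (-2.87 to -1.74), at 27.5 and 5.61 CPM. *Lig1* followed at 20.8 and 4.28 CPM, a log2 ratio of -2.28 (-2.95 to -1.65). *Rfc2*, at 109 and 99.9 CPM, had a log2 ratio of -0.13 (-0.31 to 0.06).

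RNA of other lineages was lower in cKO in mNeu-like cells as well. In mNeu-like cells the 8 erythroblast markers summed to 0.0564% of UMIs in Ctrl and 0.00527% in cKO, and all 8 were lower in cKO. The 9 erythroid progenitor markers summed to 0.0128% and 0.00320%, the 12 HSC/MPP markers to 0.00652% and 0.00128%, and the 9 B lineage markers to 0.00485% and 0.000162%, and every marker of these lists was lower in cKO. All of them were detected in Ctrl, while *Mecom* and the B lineage markers *Ebf1*, *Igll1*, *Ms4a1* and *Blnk* were at 0 in cKO. Primary granule genes were at 0.114% and 0.0509%. Of the 9 monocyte progenitor and 10 T and NK cell markers, 8 in each list were lower in cKO. In PreNeu-like cells the erythroblast markers were at 0.0243% and 0.00424%. Their log2 ratio was -3.25 in ProNeu-like, -2.52 in PreNeu-like and -3.42 in mNeu-like cells, where that of the members was -0.14, -0.20 and -1.13. Over these gates HSC/MPP markers had ratios of -0.61, -1.27 and -2.345, and B lineage markers of -0.52, -0.76 and -4.90. Median depth was 2423 UMIs in Ctrl and 6085 in cKO mNeu-like cells, and with a floor of 3000 UMIs the summed member ratio was -0.92. The part of such RNA in the late-stage member difference was not tested.

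In single cells, thinned to 1000 UMIs each with no cell left out, member UMIs were common up to PreNeu-like cells. At least 1 was found in 95.1% of ProNeu-like Ctrl cells (93.4 to 96.4) and 96.4% of cKO cells (94.5 to 97.8). At least 5 were found in 44.4% (41.1 to 47.8) and 38.7% (34.7 to 42.9). In PreNeu-like cells, which differed most in depth, at least 1 was found in 95.5% and 94.9%, and at least 5 in 42.6% (37.2 to 48.0) and 21.8% (18.6 to 25.4). Each cell counts equally here, and 379 of the 586 cKO cells were the shallow ones richer in late neutrophil genes. In mNeu-like cells, which have left the cell cycle, at least 1 was found in 50.1% (47.4 to 52.8) in Ctrl and 26.4% (23.8 to 29.2) in cKO, so a lone member UMI does not mark a replicating cell. At least 5 were found in 1 of 1331 mNeu-like Ctrl cells and 0 of 1067 cKO cells. By that measure the imNeu-like gate was mixed, with 12.4% (11.0 to 13.9) of Ctrl and 8.23% (6.85 to 9.79) of cKO cells at 5 or more, and 39.3% and 54.1% at 0. Those cells at 5 or more held 47.8% and 43.4% of the member UMIs of the gate. Before thinning, at least 1 member UMI was found in 99.9% and 100% of ProNeu-like and in 79.0% and 79.9% of mNeu-like cells, at median depths of 17125 and 22958 UMIs and 2423 and 6085 UMIs.

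**Figure D5:**
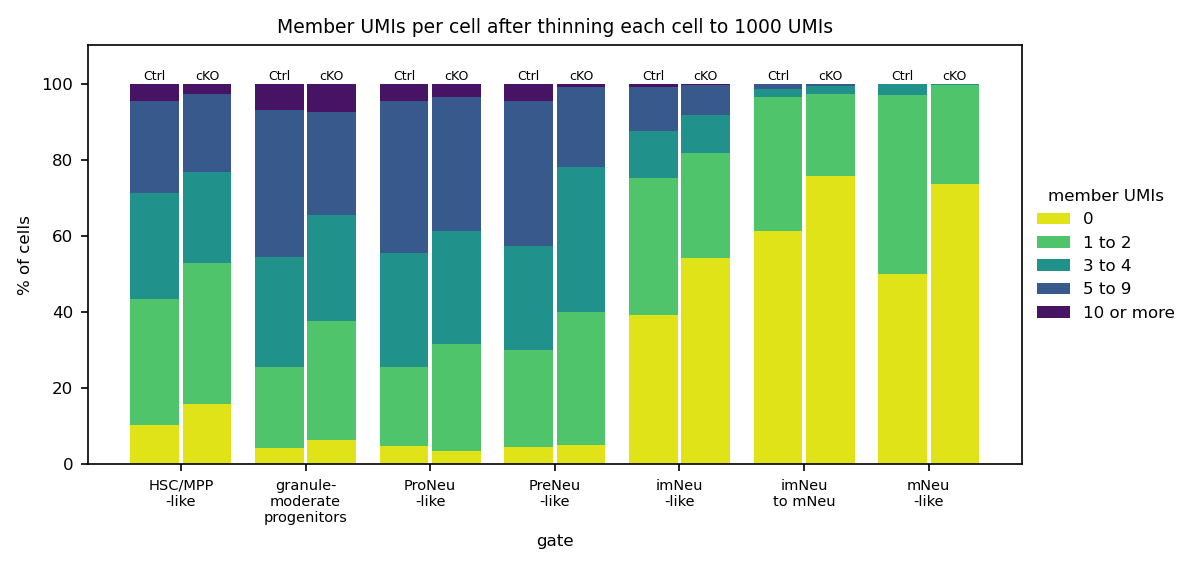
Percent of cells with 0, 1 to 2, 3 to 4, 5 to 9, or 10 or more member UMIs after each cell was thinned to 1000 UMIs, for Ctrl and cKO in 7 gates. Cells at 5 or more make up 44.4% of ProNeu-like Ctrl cells, 12.4% of imNeu-like Ctrl cells and 1 of 1331 mNeu-like Ctrl cells.

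Across the 6 neutrophil stages other than imNeu-to-mNeu, 9 of 45 members were at least 1.5-fold lower in cKO in 3 or more stages, and 0 were higher in 3 or more. Among all 10534 genes with 20 UMIs in at least 3 of these stages, 18.9% were lower and 0.911% were higher in 3 or more, so the members were near the background. Centred on the median gene, 1 member, *Orc1*, was lower in 3 stages and 0 were higher in 3 or more. Of the 10534 genes, 5.003% were lower and 4.101% were higher in 3 or more stages after centring. The 9 were *Mcm2*, *Mcm4*, *Orc1*, *Gins3*, *Mcm10*, *Pola1*, *Pold1*, *Rpa1* and *Rrm1*. *Gins4*, *Rfc2* and *Pole2* were not past the fold in any of these 6 stages where they had 20 UMIs. In imNeu-to-mNeu cells, which the 6 leave out, *Gins4* was lower, with a log2 ratio of -1.26 (-2.06 to -0.45). Another 14 members were at least 1.5-fold lower in 2 stages and 19 in 1, and *Rpa3*, among the latter, was also higher in 1. The shares of all genes lower in 1 or 2 stages were not computed. *Mcm2*, a ring subunit, was at 130.5, 166, 135, 135, 47.3 and 11.9 CPM in Ctrl from HSC/MPP-like to mNeu-like cells and at 112, 122, 112, 87.7, 22.9 and 3.25 CPM in cKO. *Pola1* was at 64.0, 72.2, 44.9, 28.7, 9.63 and 0.738 CPM in cKO over the same stages, below Ctrl at each. *Rpa1*, the largest subunit of the single-strand binding complex, had log2 ratios of -0.78, -0.11, -0.14, -0.41, -0.87 and -2.15 over the same stages. It was thus lower in cKO at each stage, but the size of the difference did not change steadily. In granule-moderate progenitors its interval ran from -0.45 to 0.22. *Pold1*, the catalytic subunit of polymerase delta, had ratios from -0.39 to -0.25 up to ProNeu-like cells, then -0.63, -0.68 and -2.34. *Orc1*, the largest subunit of the origin recognition complex, rests on few UMIs, with 31 in Ctrl and 7 in cKO HSC/MPP-like cells.

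Roles also differed in the late gates. In mNeu-like cells the lowest summed ratio of a role with at least 10 UMIs in each library was that of Okazaki fragment joining (*Fen1* and *Lig1*), -2.50 (-3.08 to -1.94), and the highest was that of the clamp and its loader, -0.51 (-0.64 to -0.37), which holds *Rfc2*. Helicase activation had -0.88 (-1.25 to -0.50), and the other roles lay between -1.94 and -1.35, apart from *Ung* on 6 and 1 UMIs. *Gmnn*, geminin, which blocks relicensing, had a ratio of -0.74 (-1.33 to -0.14), at 13.0 and 7.82 CPM. *Prim1*, the catalytic primase subunit, was at 60.4 and 56.4 CPM in ProNeu-like cells and at 8.32 and 1.33 CPM in mNeu-like cells. *Chaf1a*, the large subunit of the histone-depositing CAF-1 complex, was at 64.6 and 50.7 CPM in ProNeu-like cells and at 9.99 and 2.36 CPM in mNeu-like cells.

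Of 52 other replication genes, the counts at least 1.5-fold lower in cKO were 9, 6, 6, 13 and 22 of 52 in HSC/MPP-like, granule-moderate, ProNeu-like, PreNeu-like and imNeu-like cells. They were 25 of 40 in imNeu-to-mNeu and 32 of 43 in mNeu-like cells. The shares of all genes, in the same order of gates, were 14.7%, 16.2%, 21.5%, 30.3%, 30.5%, 38% and 38.4%. At most 1 was higher in any gate. Their summed share had a log2 ratio of -0.40 (-0.44 to -0.35) in mNeu-like cells, where that of the members was -1.13. It was close to the median of -0.40 used for centring in that gate. The sum was not typical of the list, whose median gene was at -1.23, beside -1.74 for the median member. Centred on the median gene, 25 of the 43 were lower, where 18.4% of all genes were. *Pold4*, the small accessory subunit of polymerase delta, was at 25.8 CPM in Ctrl and 46.2 CPM in cKO mNeu-like cells. Its log2 ratio there was 0.84 (0.50 to 1.19). With at least 20 UMIs, it was the only gene of the list at least 1.5-fold higher in HSC/MPP-like, imNeu-like and mNeu-like cells. In imNeu-to-mNeu cells its ratio was 0.46 (0.02 to 0.91), and a different gene of the list was at least 1.5-fold higher. *Hells*, a chromatin remodeller of dividing cells, was at 112 and 52.9 CPM in PreNeu-like cells, a log2 ratio of -1.08 (-1.30 to -0.86). *Atad5*, which unloads Pcna, was at 78.0 and 43.0 CPM in ProNeu-like cells. *Asf1b*, a histone chaperone, went the other way in PreNeu-like cells, at 103 and 147 CPM.

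Outside the neutrophil lineage, erythroid progenitor-like cells had the highest member share of the gates of at least 50 cells, 0.656% (0.649 to 0.662) in 353 Ctrl and 0.695% (0.685 to 0.706) in 75 cKO cells. Their log2 ratio was 0.09 (0.06 to 0.11). In ProMon-like cells, which held monocyte progenitor markers, the shares were 0.282% (0.277 to 0.288) and 0.231% (0.226 to 0.236), a log2 ratio of -0.29 (-0.33 to -0.25).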

How the data were processed

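Per the labels and methods, the authors made the libraries with a DG1000 3′ kit and deposited raw UMI counts per gene and barcode from Cell Ranger 5.0.0 on GRCm38, not normalized. No annotation of single cells was used. The marker lists came from textbook knowledge and from the study's own marker table, which was made on these libraries. Barcodes with 200 to 9000 genes, at most 30% mitochondrial UMIs and at least 1000 UMIs were kept. Gates used shares of marker lists in a cell's UMIs, and cells with markers of a second lineage (633 Ctrl, 178 cKO) were left out in place of a doublet caller. UMIs were summed per gate and library and scaled to CPM, which for 3′ counts was not compared between genes. Shares have exact Clopper-Pearson 95% intervals, and ratios have intervals from the exact binomial of the sums. No test was possible with 1 library per group. Members, lists, gates and rules were chosen with earlier results of these data known. Positions are from GENCODE vM21 (GRCm38), where 1 member, *Chaf1b*, overlaps a listed gene on its strand. Genes named in the text are members by role leader, by fold in 3 or more stages, by the 3 highest and lowest ratios per stage and by their course over stages, and the 2 highest and lowest of the other replication genes. Alternatives covered UMI floors, gates, denominators, scaling, thinning and filters. Calculations used Python 3.11.15, numpy 2.4.6, scipy 1.17.1 and pandas 2.3.3. The ratio step was tested on simulated sums that held counting error but no variation between cells.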

Additional observations from a re-analysis of the deposited data

Results flagged for a closer look

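As a share of UMIs, the summed members were higher in cKO in erythroid progenitor-like cells (log2 ratio 0.085, 0.059 to 0.11) and lower in the 8 other gates compared, the 7 neutrophil gates and ProMon-like cells. Centred on the median gene, the erythroid value was 0.19, and ProNeu-like and PreNeu-like cells were then also higher, at 0.13 and 0.12. Gates under 50 cells in a library were not compared. One of these, megakaryocyte-like cells (60 Ctrl and 12 cKO), was also higher in cKO, with a log2 ratio of 0.33 (0.23 to 0.43). The other such gates with cells in both libraries were lower, from -0.47 in basophil/mast/eosinophil-like to -3.42 (45 and 2 UMIs) in erythroblast-like cells. Mitotic genes were lower in cKO in erythroid progenitor-like cells, at -0.28 (-0.31 to -0.24), and in megakaryocyte-like cells, at -1.37. With 1 library per group, the member difference between cell types was not tested. *Pold2*, a polymerase delta subunit, was at 58.1 CPM in Ctrl and 94.6 CPM in cKO in erythroid progenitor-like cells, a log2 ratio of 0.70 (0.46 to 0.95). In imNeu-like cells it was at 8.09 and 4.62 CPM, a log2 ratio of -0.81 (-1.20 to -0.42), and the difference was again not tested. No group held enough libraries for a search for outlying samples.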

How the results depend on the processing

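No paired analysis was possible because each group held 1 library. Values here are log2 ratios of the summed members, cKO over Ctrl, and counts of members at least 1.5-fold lower in cKO, and the cause of each change was not tested. Apart from the centred counts given above, shares of all genes were not computed under these settings, so the counts have no background beside them. The number of members with enough UMIs can also differ from the main setting, where it was 34 in imNeu-to-mNeu cells. A smaller count alone is thus not a smaller difference. Scaling by median of ratios turned ProNeu-like and PreNeu-like ratios to 0.13 and 0.12, gave -0.15, -0.084, -0.14, -0.78 and -0.73 in HSC/MPP-like, granule-moderate, imNeu-like, imNeu-to-mNeu and mNeu-like cells, and left 0, 1 and 6 members lower in ProNeu-like, PreNeu-like and imNeu-like cells. Stricter gates gave -0.30, -0.059, -0.12 and -0.53 in HSC/MPP-like, granule-moderate, PreNeu-like and imNeu-like cells, with 7, 5 and 18 members lower in HSC/MPP-like, granule-moderate and imNeu-to-mNeu cells. Looser gates gave -0.14, -0.12, -0.11 and -0.58 in the same 4 stages, with 1 and 5 lower in granule-moderate and PreNeu-like cells. A denominator without mitochondrial, ribosomal, haemoglobin, immunoglobulin and marker genes gave -0.10, -0.10, -0.044 and -0.17 in the first 4 stages, with 0 lower in ProNeu-like cells. A fold of 2 left 0, 1, 0, 1 and 5 lower in the first 5 stages, and a filter of 100 UMIs left 1 of 43, 4 of 5 and 10 of 12 members lower in granule-moderate, imNeu-to-mNeu and mNeu-like cells. Without the 5% of cells with most UMIs, ratios were -0.10, -0.18, -0.16, -0.55 and -1.50 in granule-moderate to imNeu-to-mNeu cells, with 1, 2 and 4 lower in the first 3 of these. Per-cell means gave -0.11, -0.38 and -0.89 in ProNeu-like, PreNeu-like and imNeu-to-mNeu cells, and thinning to 1000 UMIs gave -0.066, -0.34, -0.47, -0.88 and -1.28 from ProNeu-like to mNeu-like cells. Floors of 500 and 3000 UMIs each left 2 lower in ProNeu-like cells. A floor of 500 gave -0.24 in PreNeu-like cells, one of 2000 gave -1.02 in mNeu-like cells, and one of 3000, chosen after seeing the data, gave -0.17, -0.53, -1.32 and -0.92 from PreNeu-like to mNeu-like cells. A common mix of late-gene ranges, also chosen after seeing the data, gave -0.081 in imNeu-like cells. Of 922 values for single members past the fold, 884 lay within the counting interval of the main value, 38 moved outside it and 0 reversed. That interval is wide for a member with few UMIs and narrow for a sum. These counts therefore do not rank the results by stability. Members were also taken past the fold in the main setting, which makes a reversal unlikely. Of 129 values for summed ratios and stage changes 65 moved and 2 reversed, and of 154 shares 87 moved. All 28 single-cell percentages moved with a cut of 3 member UMIs or thinning to 2000 UMIs. The latter took mNeu-like Ctrl cells with a member UMI from 50.1% to 68.0%, with 468 cells left out. The log2 change from PreNeu-like to imNeu-like cells ranged over 11 alternatives from -1.35 to -1.06 in Ctrl and from -1.66 to -1.39 in cKO, and that to mNeu-like cells from -3.12 to -2.62 and from -4.07 to -3.43. Depth limited the last 2 gates most, with 1162 and 1435 member UMIs in imNeu-to-mNeu cells and 2248 and 1932 in mNeu-like cells.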
